A study of Homo sapiens with 6 samples.

Results

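The NKG2D ligand genes encode the cell surface proteins by which a cell can be recognised by natural killer cells and cytotoxic T cells, and their RNA was followed here in 6 clonal lines of HEK293 cells. The members were taken by name: MICA, MICB, ULBP1, ULBP2, ULBP3, RAET1E, RAET1G and RAET1L, 8 of the 58395 genes counted. MICB was chosen by its measured difference between the 2 kinds of line in these same data, and the other 7 genes because they encode ligands of the same receptor. All values of the members in that contrast are therefore given as a description, with no test of theirs as support.

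HEK293 is an established line of human embryonic kidney origin. GST lines 2, 8 and 9 overexpressed GST-3F, a tagged glutathione S-transferase that served as the control protein, and NOCT lines 4, 11 and 12 overexpressed NOCT ∆(2-15)-3F, nocturnin without residues 2 to 15 and with the same tag. All 6 lines thus carried a 3F construct, and none was an untransfected parent. Each line is 1 clone, labelled as a biological replicate, and gave 1 strand-specific library of 50 bp reads after 3 days of growth. The groups hold 3 clones each, so a difference between groups includes whatever set these clones apart from each other. The comparison asks how RNA levels in lines with this form of nocturnin differ from those in lines with the control protein.

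NKG2D is an activating receptor of natural killer cells and of some T cells. Its human ligands are distant relatives of MHC class I molecules. They are typically scarce on unstressed cells, and DNA damage, heat shock, viral infection and transformation are known to raise them. MICA and MICB span the membrane with a segment of their own, whereas several ULBP proteins are held by a glycolipid (GPI) anchor, and proteases can release both kinds from the surface. RNA alone was measured here, so nothing is known from these data about the proteins at the cell surface.

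The libraries held 19729745 to 24422406 gene counts, and 26140 to 27682 genes had a count. The construct rows matched the labels: the GST construct had 46 to 88 counts in GST lines and 0 or 1 in NOCT lines, and the NOCT construct had 46 to 82 in NOCT lines and 3 to 7 in GST lines. Of 8 genes fixed as markers of HEK293, VIM, NEFL, KRT8, KRT18 and LIN28B were well detected, PAX2 was low (1.80 to 2.45 TPM in GST lines and 0.370 to 0.618 in NOCT lines), NEFM was low outside NOCT line 12, and PAX8 had 3 counts in all. The summed level of these markers was 543 to 749 TPM in GST lines and 648 to 1212 TPM in NOCT lines. Of the 6 tested, 0 passed in edgeR (0.0579% of all genes tested) and 3 had an unadjusted p under 0.05 (13.9%). DESeq2 called 2 of the 6 (3.41% of all genes). These were PAX2, a kidney lineage factor, at -2.13 ± 0.30 on the log2 scale (SE; edgeR adjusted p 0.0567), larger in size than that of MICB, and the keratin KRT8 with 1.11 ± 0.26 (edgeR adjusted p 0.159); neither had overlapping groups. The part of these marker differences in any result was not tested. TPM, a level per transcript length, scales a count by gene length and depth and is the only scale used to compare genes. CPM (counts scaled to library size with TMM factors) is used to compare lines.

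MICB stood furthest apart between the groups among the ligand genes. MICB (ENSG00000204516), protein-coding, lies at chr6:31494881-31511124 on the plus strand of GRCh38, in the MHC class I region. It had 10.6, 12.0 and 12.1 TPM in GST lines 2, 8 and 9, and 37.2, 29.3 and 28.5 TPM in NOCT lines 4, 11 and 12. Every NOCT line was above every GST line, and the lowest NOCT line had 2.28 times the CPM of the highest GST line. Behind these levels were 210, 249 and 247 counts in the GST lines and 855, 617 and 561 in the NOCT lines. In CPM, the mean went from 11.6 ± 0.529 to 29.8 ± 3.29 (SD, n = 3 each). The log2 fold change was 1.36 ± 0.13 (SE), with a 95% interval of 1.06 to 1.67, which is 2.57-fold. Its edgeR adjusted p was 0.0173, in the same contrast that brought MICB in, and it ranked 6 of 17261 genes by p. In bulk RNA, a larger share of cells with MICB RNA and more of it in each cell cannot be told apart. The adjusted p was 0.0707 without GST line 2, 0.118 without GST line 8, 0.186 without GST line 9 and 0.0729 without NOCT line 11, while the log2 fold change stayed between 1.26 and 1.41 without any 1 line.

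MICA, the closest paralog of MICB, was also higher in each NOCT line, by less. MICA (ENSG00000204520), also protein-coding, lies at chr6:31399784-31415315 on the plus strand. Its level was 24.8, 26.8 and 25.8 TPM in GST lines 2, 8 and 9 and 46.3, 51.6 and 31.4 TPM in NOCT lines 4, 11 and 12. NOCT line 12 was close to the GST lines and the other two stood well above them. The GST lines gave almost the same CPM, with a coefficient of variation of 0.256%, below the 4.73% that counting alone gives for 1 line. In NOCT lines it was 22.0%, against 3.56% from counting. The log2 fold change of MICA was 0.65 ± 0.17 (SE).

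The MICA to MICB ratio of TPM differed between the groups as well. It was 2.33, 2.23 and 2.14 in GST lines 2, 8 and 9 and 1.25, 1.76 and 1.10 in NOCT lines 4, 11 and 12. In TPM, MICA thus exceeded MICB in all 6 lines. In NOCT line 12 that order rests on the scaling by gene length, since MICA had 527 counts there and MICB 561. Each NOCT line had a lower MICA to MICB ratio than each GST line. This ratio rests on the same contrast as the choice of MICB and is a description only.

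**Figure D1:**
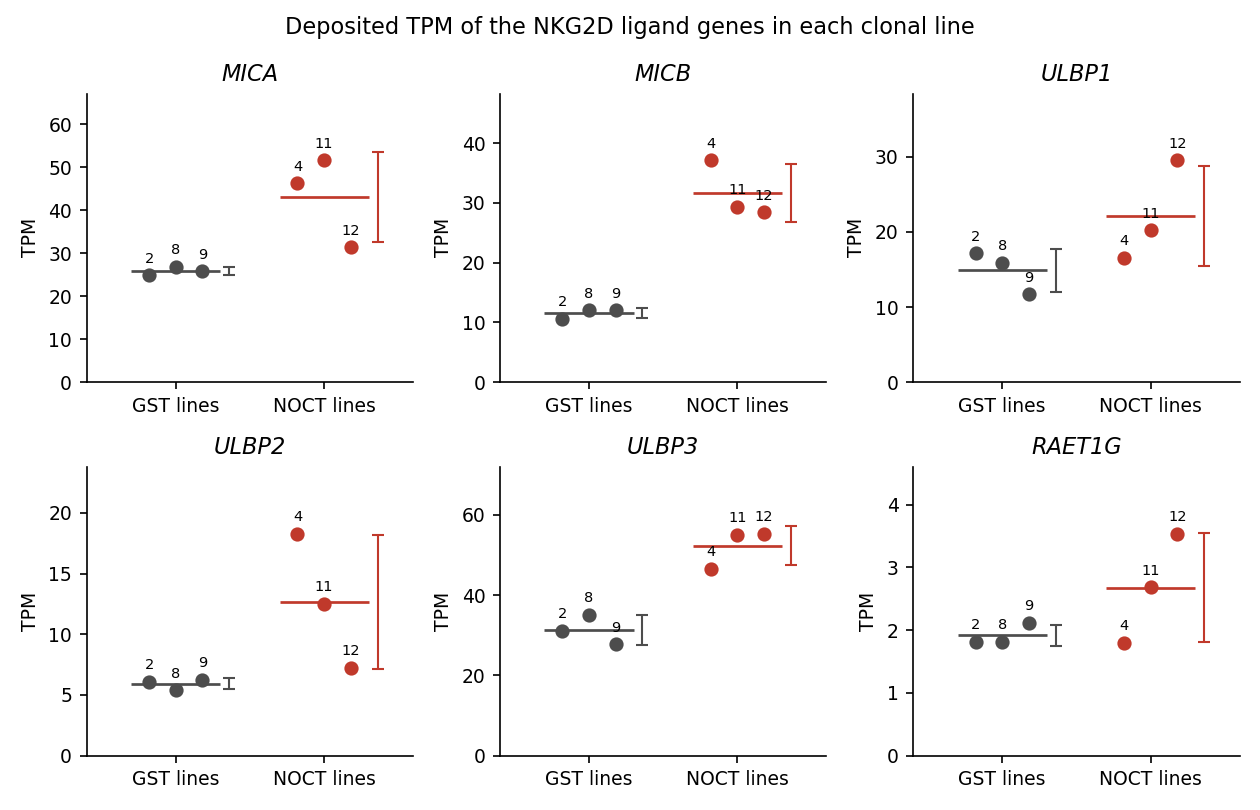
Deposited TPM (y axis, from 0) of the 6 NKG2D ligand genes with enough counts to test, by group (x axis). Points are clonal lines with their line numbers, horizontal lines are group means and bars beside them the SD of 3 lines; MICB in NOCT lines lies between 28.5 and 37.2 TPM, above all GST lines, while ULBP1 and RAET1G overlap.

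The sequences upstream of the RefSeq starts of this pair are shown. They are the most alike among the ligand genes and belong to paralogs that were both higher in each NOCT line. The RefSeq sequences (GRCh38.p14) run 5′ to 3′ toward the RefSeq start, from 250 to 71 bases before it, and overlap no GENCODE exon. Both stretches lie inside the GENCODE gene spans given above, which begin earlier, so they are upstream of the RefSeq starts only. Capitals mark matches to motifs searched on both strands.
MICA, chr6:31403345-31403524, plus strand: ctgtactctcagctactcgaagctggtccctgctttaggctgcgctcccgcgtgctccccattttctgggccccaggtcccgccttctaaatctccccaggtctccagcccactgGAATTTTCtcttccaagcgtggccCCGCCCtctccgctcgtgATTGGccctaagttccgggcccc
MICB, chr6:31497895-31498074, plus strand: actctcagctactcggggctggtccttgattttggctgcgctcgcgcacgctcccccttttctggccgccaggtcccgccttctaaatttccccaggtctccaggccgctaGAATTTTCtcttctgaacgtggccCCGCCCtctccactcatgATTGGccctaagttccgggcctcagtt
Over the full 250 bases before the start, the sequences of MICA and MICB were 82.7% identical in a global alignment, with 210 identical bases, 36 mismatches and 8 gap bases. The other pairs of ligand genes had 39.5% to 54.5%. In each of the pair, the capitals mark in the same order a form of the heat shock element, a GC box read on the other strand, and a CCAAT box also read on the other strand. Outside the stretch printed, MICA held another CCAAT box, 64 to 60 bases before its start, which MICB lacked. The heat shock element was searched as GAANNTTC and found as GAATTTTC in both. It lay 135 to 128 bases before the MICA start and 139 to 132 before the MICB start, in none of the other 6 ligand genes, and in 5.78% of 35116 RefSeq promoters of that length. A match in letters is not evidence of a bound factor.

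ULBP3 had the highest TPM of the ligand genes in the means of both groups. ULBP3 (ENSG00000131019), protein-coding, whose product is GPI-anchored, lies at chr6:150063150-150069095 on the minus strand, in the cluster of ULBP and RAET1 genes on the other arm of the chromosome. Its level was 31.1, 35.1 and 27.8 TPM in GST lines 2, 8 and 9 and 46.6, 55.0 and 55.3 TPM in NOCT lines 4, 11 and 12. Each NOCT line was above each GST line, with NOCT line 4 the nearest to them. The log2 fold change was 0.66 ± 0.16 (SE), close to that of MICA.

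ULBP2 differed most among the genes of that cluster, and its NOCT lines were far apart. ULBP2 (ENSG00000131015; chr6:149942000-149949235, plus strand) encodes another ligand of the cluster that can be GPI-anchored. Its TPM was 6.09, 5.41 and 6.28 in GST lines 2, 8 and 9 and 18.3, 12.5 and 7.26 in NOCT lines 4, 11 and 12. The groups did not overlap, though NOCT line 12 had only 1.13 times the CPM of the highest GST line. With 69 counts in NOCT line 12 (95% Poisson interval 53.7 to 87.3) and 62 in GST line 9 (47.5 to 79.5), that gap was within counting error. The log2 fold change was 1.00 ± 0.32 (SE), and it was 0.67 without NOCT line 4.

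ULBP1 and RAET1G did not separate the groups. ULBP1 (ENSG00000111981; chr6:149964007-149973710, plus strand) encodes a GPI-anchored ligand and had 17.1, 15.9 and 11.7 TPM in GST lines 2, 8 and 9 and 16.6, 20.2 and 29.6 TPM in NOCT lines 4, 11 and 12. NOCT line 4 lay within the GST range and NOCT line 12 well above it. RAET1G (ENSG00000203722; chr6:149916878-149923121, minus strand) encodes the ligand also called ULBP5 and had 1.81, 1.82 and 2.11 TPM in the GST lines and 1.80, 2.68 and 3.54 TPM in the NOCT lines, from 19 to 37 counts. The log2 fold changes were 0.49 ± 0.26 for ULBP1 and 0.40 ± 0.35 for RAET1G (SE). Without NOCT line 12 they were 0.18 and 0.11, and without NOCT line 4 they were 0.68 and 0.64, so their size depends on both lines.

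RAET1E and RAET1L were at the limit of detection. RAET1E (ENSG00000164520; chr6:149883375-149898102, minus strand), which encodes the ligand also called ULBP4, had 0, 2 and 3 counts in GST lines 2, 8 and 9 and 1, 2 and 1 in NOCT lines 4, 11 and 12. RAET1L (ENSG00000155918; chr6:150018334-150025532, minus strand), which encodes ULBP6, had 5 counts in NOCT line 11 and 0 in the other 5 lines, where a count of 0 allows up to 3 (a one-sided limit from counting). Neither was tested, and no difference was detectable at this depth.

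Upstream stretches of the cluster genes with groups that did not overlap are shown in the same way, to set against those of MICA and MICB.
ULBP2, chr6:149941764-149941943, plus strand: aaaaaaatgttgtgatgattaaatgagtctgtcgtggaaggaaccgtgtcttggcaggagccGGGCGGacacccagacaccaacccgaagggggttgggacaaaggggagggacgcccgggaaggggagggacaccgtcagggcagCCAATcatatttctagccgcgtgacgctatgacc
ULBP3, chr6:150069192-150069371, minus strand: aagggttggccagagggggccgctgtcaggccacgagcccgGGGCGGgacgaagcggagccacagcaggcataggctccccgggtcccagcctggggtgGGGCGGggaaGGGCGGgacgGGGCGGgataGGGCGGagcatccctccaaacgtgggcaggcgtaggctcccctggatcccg
Over 250 bases, the ULBP3 sequence held 6 matches to the GC box GGGCGG, of which 5 are in the stretch printed, and no CCAAT. ULBP2 held 1 GC box and 1 CCAAT box. Among the 8 ligand genes, 6 held a GC box (42.6% of all promoters), 5 a CCAAT box (32.0%), 2 the AP-1 motif TGANTCA (6.57%; RAET1E and RAET1L) and 1 the other heat shock form TTCNNGAA (6.62%; RAET1E). None held TTTGGCGC or TTTCGCGC (E2F), TGACGTCA (cyclic AMP element), TGATGNAA (amino acid response), the NF-kB motif or TATAAA. For RAET1E, 3 RefSeq starts were searched.

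In the GST lines, the ligand genes ordered by mean TPM as ULBP3 (31.3 ± 3.68), MICA (25.8 ± 1.00), ULBP1 (14.9 ± 2.86), MICB (11.6 ± 0.807), ULBP2 (5.93 ± 0.458) and RAET1G (1.91 ± 0.172; SD, n = 3 each). The ranges of ULBP1 and MICB overlapped, and those of the other neighbours in the order did not. In the NOCT lines the order was ULBP3 (52.3 ± 4.94), MICA (43.1 ± 10.5), MICB (31.7 ± 4.79), ULBP1 (22.1 ± 6.70), ULBP2 (12.7 ± 5.52) and RAET1G (2.67 ± 0.868). There, each gene down to ULBP2 overlapped in range with the next, and RAET1G alone stood clear. By group mean, MICB and ULBP1 thus changed places, within overlapping ranges in both groups. Within single lines the order did not follow the group throughout. MICB was above ULBP1 in GST line 9 (12.1 against 11.7 TPM) and below it in NOCT line 12 (28.5 against 29.6 TPM).

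Summed over the 8 genes, ligand RNA was 91.7, 97.2 and 85.8 TPM in GST lines 2, 8 and 9 and 166.8, 172.0 and 155.6 TPM in NOCT lines 4, 11 and 12. The sums varied less between NOCT lines than most single members did. Their means were 91.6 ± 5.71 and 164.8 ± 8.38 TPM (SD, n = 3 each), a ratio of 1.80. The MICA and MICB part went from 37.4 ± 1.73 to 74.7 ± 13.0 TPM, and the ULBP and RAET1 part from 54.2 ± 5.46 to 90.1 ± 6.26 TPM. MICA and MICB together made up 38.7%, 40.0% and 44.1% of the sum in GST lines 2, 8 and 9 and 50.0%, 47.1% and 38.5% in NOCT lines 4, 11 and 12. That share overlapped between the groups, and the sums, which include MICB, did not. Effects of the construct and of the clones cannot be told apart here.

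**Figure D2:**
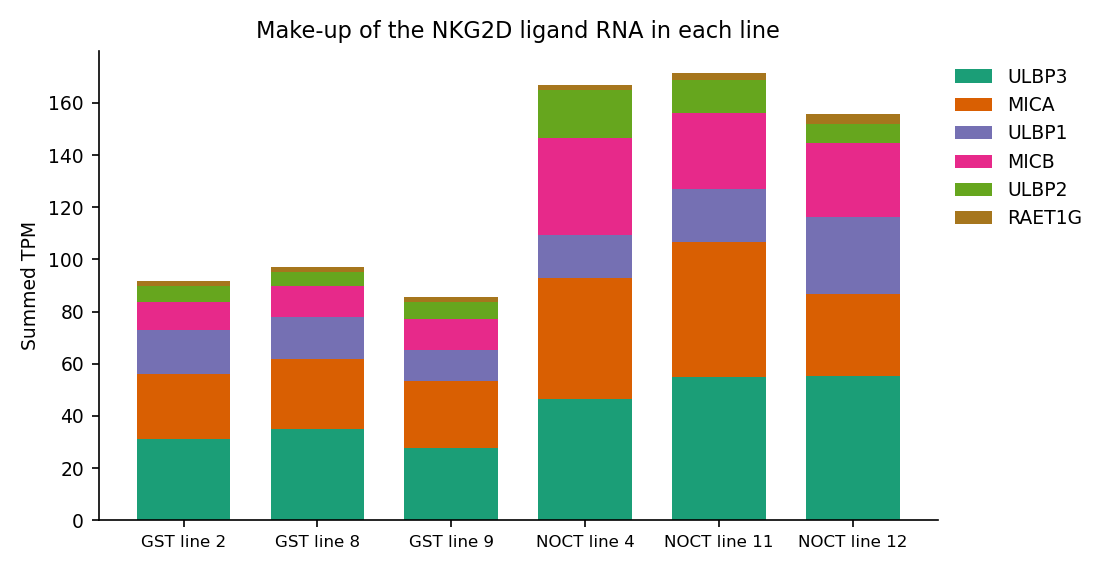
Stacked bars of TPM (y axis, from 0) of 6 NKG2D ligand genes in each clonal line (x axis). The bars reach 85.8 to 97.2 TPM in GST lines and 155.6 to 172.0 TPM in NOCT lines; RAET1E and RAET1L, near 0, are included in those sums but not drawn.

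Among themselves, the NOCT lines showed 2 opposite patterns. Relative to the mean CPM of the GST lines, NOCT line 4 was at log2 1.47 for ULBP2 and 0.69 for MICA, but at 0.00 for ULBP1 and -0.24 for RAET1G. NOCT line 12 was at 0.27 for ULBP2 and 0.26 for MICA, but at 0.96 for ULBP1 and 0.86 for RAET1G. NOCT line 11 was at 0.99 and 0.91 for the first pair and at 0.35 and 0.40 for the second. MICB was the most even of the 6, at 1.53, 1.25 and 1.28 in NOCT lines 4, 11 and 12. The ULBP1 to ULBP2 ratio of TPM accordingly ranged from 0.905 in NOCT line 4 to 4.07 in NOCT line 12, and the GST lines, at 1.86 to 2.94, lay between. These patterns were seen in the same 6 lines that chose the genes, and each rests on 1 library per line.

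**Figure D3:**
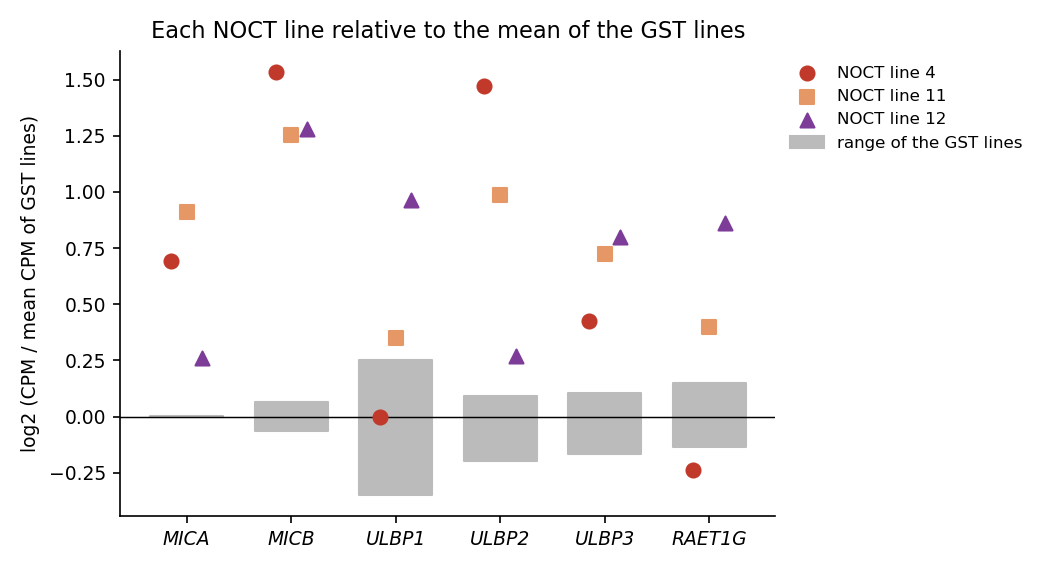
log2 ratio of CPM in each NOCT line to the mean CPM of the GST lines (y axis) for 6 ligand genes (x axis); grey bands are the range of the 3 GST lines around their mean. MICB is at 1.25 to 1.53 in all NOCT lines, while NOCT line 12 is lowest for MICA and ULBP2 and highest for ULBP1, ULBP3 and RAET1G.

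Set against all genes, the ligand genes lay on the higher side. Of the 6 members tested, 6 had a log2 fold change above 0 (50.7% of all genes), 4 had every NOCT line above every GST line (10.5%), 0 had every NOCT line below (9.54%) and 1, MICB, had an edgeR adjusted p under 0.05 (0.0579% in either direction, 0.0232% higher and 0.0348% lower). An unadjusted p under 0.05 was found for 4 (13.9%, and 7.38% higher). Their median log2 fold change was 0.65, against 0.0046 over the 17261 genes tested. A log2 fold change of 0.5 or more in the higher direction was found for 8.35% of genes. MICB had a larger fold change than 99.0% of those genes and RAET1G than 88.1%. DESeq2 called 3 of the 6 (3.41% of genes in either direction, 1.82% higher). In the authors' deposited table MICA, MICB and ULBP3, 3 of the 6, have an adjusted p under 0.05 (2.87% of rows, 1.49% higher). The log2 fold changes in the authors' deposited table are 1.21 for MICB, 0.66 for ULBP2, 0.57 for ULBP3, 0.55 for MICA, 0.38 for ULBP1 and 0.20 for RAET1G. Nothing is read from these counts, because the contrast was part of the choice.

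**Figure D4:**
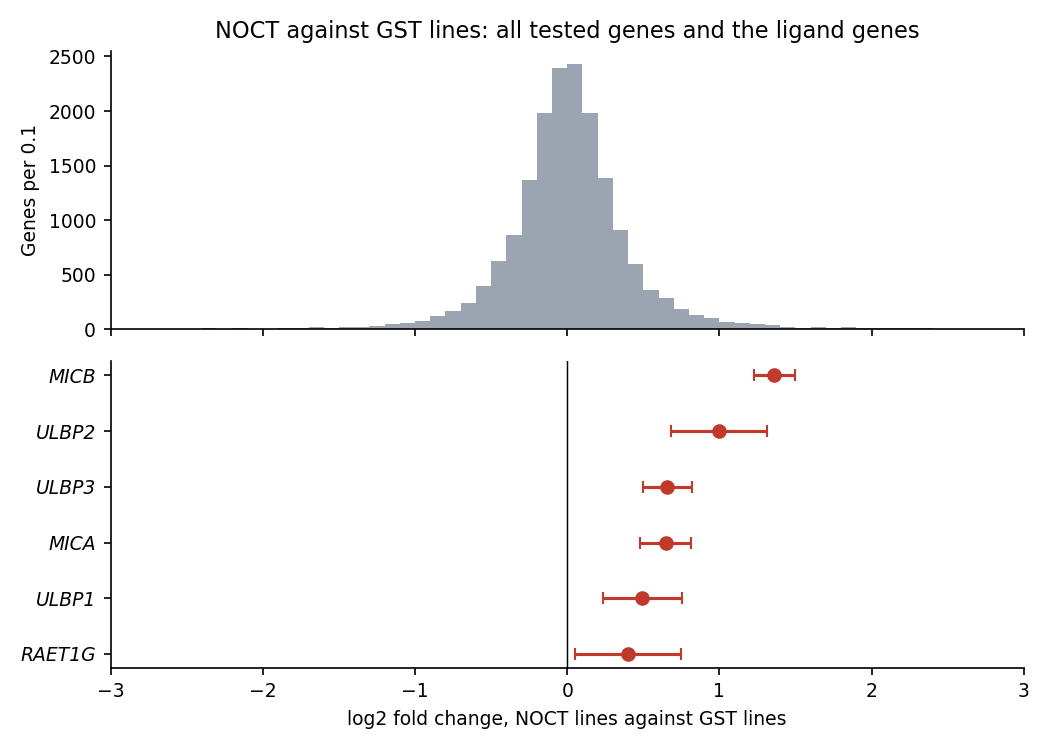
Top, number of genes per 0.1 of log2 fold change among the 17261 tested (values beyond the axis are not drawn); bottom, log2 fold change of 6 ligand genes with SE bars, NOCT against GST lines, on the same x axis. The ligand genes lie between 0.40 and 1.36.

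Near-identical sequence limits how these counts can be read, since reads that did not align uniquely (13.3% to 14.6% of reads in the files) were not counted to genes. Of the distinct windows of 50 bases in GENCODE transcripts, 2.64% of those of MICA and 2.94% of those of MICB also occur in another gene, and 45 windows are shared between them. The share was 6.85% for ULBP1 and 12.4% for ULBP3 (both with the pseudogene RAET1K) and 18.3% for RAET1G. For ULBP2 it was 32.2%, mostly with RAET1L, whose own share was 31.5%. Levels of ULBP2 and RAET1L are therefore the least certain in this respect. RAET1E had 33.7%, but 1006 of its 1026 shared windows are shared with AL355312.5, an annotated gene that overlaps it on the same strand. No count of AL355312.5 was available in these data. HCP5, a noncoding gene, overlaps MICA on the same strand, and reads in both would be left out as ambiguous.

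RNA of the receptor was not detected. KLRK1, which encodes NKG2D itself, had 0 counts in all 6 lines, and so had TYROBP, NKG7 and CD3E, genes of natural killer and T cells. The other 7 of the 11 genes fixed as markers of those cells had 3 to 34 counts over the 6 libraries. KLRD1 had 34 and was above 0 in each line, CD247 had 33, and HCST, the signalling adaptor of NKG2D, had 10. The 11 genes summed to 0.248 to 1.28 TPM in GST lines and 0.623 to 1.62 TPM in NOCT lines, and none had enough counts to test. The part of such low counts in the results was not tested. The ligand RNA was thus measured in cells without detectable KLRK1 RNA.

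The lists that follow are read against all genes tested, of which 0.0579% passed in edgeR, 13.9% had an unadjusted p under 0.05 and 3.41% passed in DESeq2, so 0 calls in a list of this size is near the background and is no result about the list. Scaling by the spike-ins moved the median over all genes to 0.15, so small values depend on the scaling.

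For genes that act on the ligands after translation, DESeq2 made 1 call and edgeR none with all 6 lines. Of 11 tested genes of proteolytic release, 0 passed in edgeR, 4 had an unadjusted p under 0.05 and DESeq2 called MMP2 (adjusted p 0.0111). Without NOCT line 12, edgeR called 2 of these 11, MMP2 and TIMP3, beside 970 of 17882 genes in all. The median log2 fold change was 0.13. MMP2, which encodes a secreted metalloproteinase, had 2.26 ± 0.68 (SE; edgeR adjusted p 0.222) and was at 0.806 TPM in NOCT line 12, inside the GST range, against 5.82 in NOCT line 11. ADAM17, a sheddase, had -0.39, which was -0.022 once the level of its neighbours was taken out by an offset and -0.61 without NOCT line 11. The protease inhibitor TIMP1 had 0.47. TIMP3, another inhibitor, had 1.02, which was 0.62 without NOCT line 4 and 1.36 without NOCT line 12 (edgeR adjusted p 0.00358). For GPI anchor synthesis, 0 of 26 genes passed in edgeR, 3 had an unadjusted p under 0.05 and DESeq2 called 0, with a median of 0.10. Without NOCT line 12, edgeR called 2 of the 26, beside the same 970 of 17882 genes in all. PIGK and PIGM were at 0.38 and 0.37. PIGT was at 0.44, or 0.27 without NOCT line 4 and 0.65 without NOCT line 12 (edgeR adjusted p 0.0182). DPM2 was at -0.44, and at -0.088 with the neighbour offset.

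For the stress pathways known to raise these ligands, call counts were near the same background. Of 17 DNA damage genes, 0 passed in edgeR (3 unadjusted, 0 in DESeq2) and the median log2 fold change was 0.01. Among them the damage kinase ATR was at -0.32, RAD50 at -0.29, the repair gene BRCA1 at 0.28 and the checkpoint adaptor CLSPN at 0.22. Of 18 heat shock genes, 0 passed (2 unadjusted, 0 in DESeq2), with a median of 0.02. The heat shock factor HSF1 was at -0.38, or -0.13 without NOCT line 12 and -0.62 without NOCT line 4. The mitochondrial chaperonins HSPD1 and HSPE1 were at -0.35 and -0.49, HSPD1 at -0.21 with the neighbour offset. HSPB1 was at 0.42, or -0.044 without NOCT line 12. Single lines could still stand apart. In NOCT line 12, HSPA1A was at 263 TPM, against 48.8 to 121 in the other lines. CDKN1A was at 118 TPM there (46.0 to 75.3 elsewhere) and MDM2 at 143 (68.2 to 93.7). Others were lowest there, HSPH1 at 21.4 TPM (27.4 to 55.2) and HSF1 at 10.1 (18.6 to 23.6). HSPA1A, CDKN1A, MDM2 and HSPH1 were named after their values were seen, and the cause was not tested.

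Among 24 regulators of transcription, 0 passed in edgeR, 2 had an unadjusted p under 0.05 and the median was 0.01. DESeq2 called both of these, MYC and EP300. MYC, a growth-promoting transcription factor, had 47.9, 41.1 and 48.8 TPM in GST lines 2, 8 and 9 and 14.5, 12.1 and 30.3 TPM in NOCT lines 4, 11 and 12. Each NOCT line was below each GST line, NOCT line 12 the least so. Its log2 fold change was -1.35 ± 0.34 (SE; edgeR adjusted p 0.184, DESeq2 adjusted p 0.00195), and -1.91 without NOCT line 12 (edgeR adjusted p 0.00104). EP300, a histone acetyltransferase, had 0.42 ± 0.08 (edgeR adjusted p 0.120, DESeq2 adjusted p 0.00209), and 0.17 with the neighbour offset. STAT3 was at 0.20, or 0.13 without GST line 2, and the stress factor ATF3 at 0.22, or 0.13 with the neighbour offset. Of 12 regulators of RNA processing and decay tested, 0 passed (1 unadjusted, 0 in DESeq2; median 0.04). The microRNA processing gene DICER1 was at 0.24, but at 0.0044 with the neighbour offset, 0.12 without GST line 8 and 0.36 without GST line 2. DGCR8, of the same pathway, was at 0.20, at -0.088 with the offset and at 0.13 without NOCT line 12. DROSHA was at 0.14 and the decay kinase SMG1 at -0.27.

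Ligands of other killer cell receptors, of which 22 could be tested, gave 0 calls in edgeR, 5 genes with an unadjusted p under 0.05 and 1 call in DESeq2, CADM1. Their median log2 fold change was 0.07. The adhesion gene CADM1 was at 0.49 ± 0.13 (SE; edgeR adjusted p 0.196), PCNA, a replication clamp that natural killer cells can also bind, at 0.35 (0.087 with the neighbour offset), HLA-F, a nonclassical class I gene, at 0.58 and the adhesion gene NECTIN3 at -0.33. Of 10 matched relatives of the ligand genes, which are pseudogenes and noncoding genes, 3 could be tested and 0 passed (0 unadjusted, 0 in DESeq2): HCP5 at 1.18 ± 0.78 (0.42 without NOCT line 4, 1.96 without GST line 2), RAET1K at 0.14 and MICE at 0.03, of which RAET1K and MICE changed sign when single lines were left out. Over the 8 lists from receptor to other ligands, 130 genes were tested, with 0 calls in edgeR, 20 unadjusted and 4 in DESeq2, near the shares of 0.0579%, 13.9% and 3.41% over all genes. Without NOCT line 12, edgeR called 10 of these 130, beside 970 of 17882 genes in all.

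The lines are clones, so the genes around the ligand genes were examined for a shared shift. Around MICA and MICB, the log2 fold changes of 21 tested neighbours had a median of 0.07: 13 were higher and 8 lower in value, with 0 called in edgeR and 3 with an unadjusted p under 0.05. Their median deviation from the mean over the lines was -0.03, 0.10 and -0.13 in GST lines 2, 8 and 9 and 0.002, -0.01 and 0.16 in NOCT lines 4, 11 and 12. The groups overlapped, with a difference of 0.07 (exact two-sided permutation p = 0.4, where 0.1 is the smallest 3 lines against 3 can give). With 5 neighbours on each side the difference was 0.27 (exact p = 0.2). Of the 5 nearest annotated genes on either side of MICB, HCP5, MICA and DDX39B had enough counts to test, and DDX39B, an RNA helicase gene just downstream, was at -0.11 ± 0.11. One neighbour, the antisense gene DDX39B-AS1, named after its value was seen, had a larger fold change than MICB, at 1.64 ± 0.43 (SE, edgeR adjusted p 0.191). Its level was low, at 0.147 to 0.752 CPM over the lines.

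Around the ULBP and RAET1 genes, 21 neighbours had a median of 0.11, with 17 higher and 4 lower in value, 0 called in edgeR and 2 with an unadjusted p under 0.05. The difference in their median deviation was 0.15 (exact two-sided permutation p = 0.2), and 0.19 with 5 neighbours on each side (exact p = 0.1). That last p is the smallest that 3 lines against 3 can give, so the groups did not overlap in that setting. Some neighbours, named after their values were seen, had fold changes as large as ligand genes of the same locus. PLEKHG1 was at 0.96 ± 0.18 (SE, edgeR adjusted p 0.114), with every NOCT line above every GST line. PDCL3P5, which lies within the span of PLEKHG1, was at 1.11 ± 0.53, from only 0.211 to 1.34 CPM. PPP1R14C was at 0.56 ± 0.18. The groups overlapped for PDCL3P5 and PPP1R14C. All of these log2 fold changes were above those of ULBP1 and RAET1G. Near MICA and MICB, DDR1 was at 0.62 ± 0.13 (edgeR adjusted p 0.133), close to MICA. A shift shared by neighbouring genes and a change in the ligand genes themselves were not told apart for any ligand gene, MICB included. After an offset for up to 50 neighbours on each side, the log2 fold change of MICB was 1.28. The same offset gave 0.90 for ULBP2, 0.57 for ULBP3, 0.56 for MICA, 0.40 for ULBP1 and 0.29 for RAET1G.

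**Figure D5:**
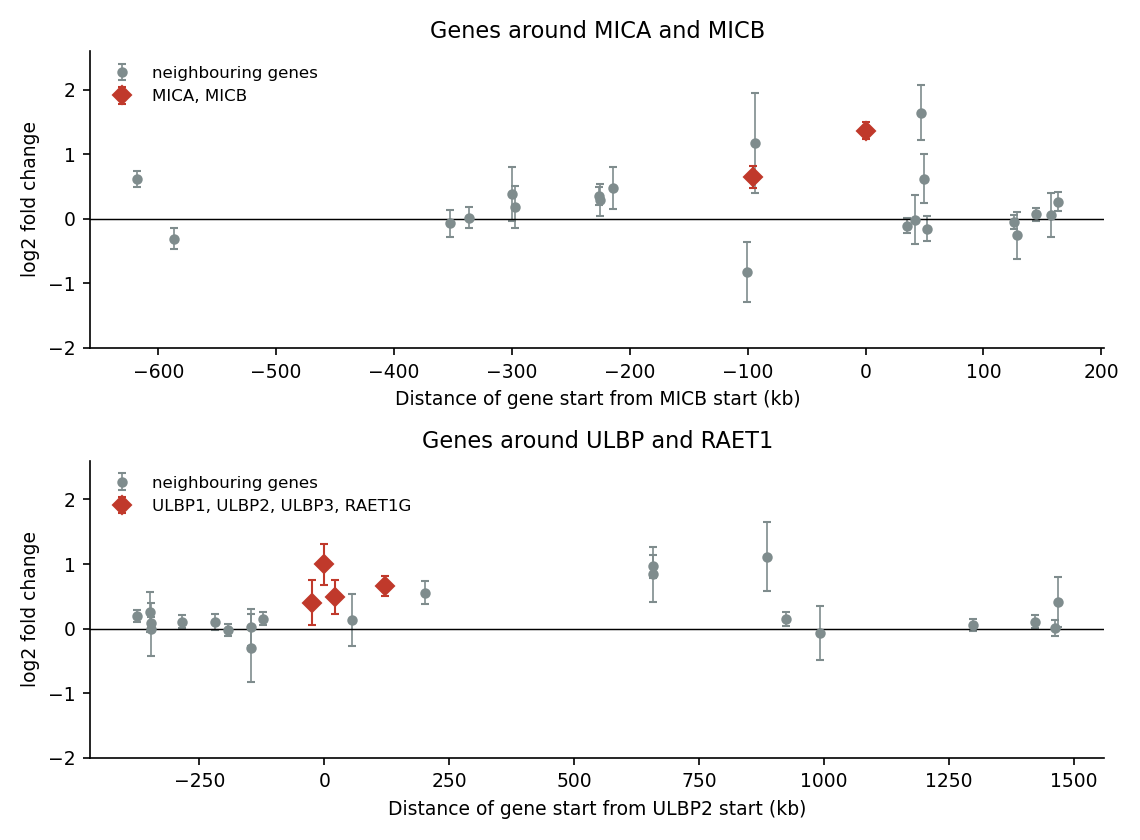
log2 fold change with SE bars (y axis) of the tested genes around MICA and MICB (top) and around the ULBP and RAET1 genes (bottom) by distance of gene start in kb (x axis); ligand genes are diamonds. The neighbours have medians of 0.07 and 0.11, MICB is at 1.36 and ULBP2 at 1.00; the neighbour above MICB is DDX39B-AS1, at 1.64.

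The genes whose log2 CPM followed MICB most closely over the 6 lines, among 14937 with a mean of at least 1 CPM, were TFAP2A (Pearson r 0.994), ST13 (0.993), CLSTN3 (0.993), ENAH (0.991) and ASCC2 (0.989). The 6 points form 2 groups, so any gene that separates the groups can reach a high value, and the genes share the libraries and their depth. The other ligand genes were less like it: ULBP3 had 0.858, MICA 0.851, ULBP2 0.835, ULBP1 0.473 and RAET1G 0.373. TFAP2A, a transcription factor gene, had a log2 fold change of 0.70 and the actin regulator ENAH of 0.63.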

How the data were processed

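Total RNA of 6 clonal HEK293 lines was sequenced after ribosomal RNA depletion. The submitters' processing notes name STAR 2.5.2b, HTSeq 0.6.1p1, DESeq2 1.16.1, cutadapt 1.8.1, Trimmomatic 0.33 and the build GRCh38; the annotation release is not given in the sources used here. The deposited counts are unnormalized whole numbers of reads. Rows that name no gene (no feature 26.5% to 30.6% of reads, ambiguous 2.02% to 2.41%, not unique 13.3% to 14.6%) entered neither library sizes nor tests. The TPM values deposited by the authors equal those counts over 1 length per gene and depth. The authors' deposited table gives shrunken log2 fold changes, p-values and adjusted p-values, a test statistic (a score that was not used here), and a mean normalised count (signal) per row.

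Genes were fitted with edgeR 4.0.16 (filterByExpr, TMM, quasi-likelihood test, Benjamini-Hochberg over 17261 genes, threshold 0.05), after a test on simulated data. DESeq2 1.42.0, limma 3.58.1, other scalings and filters, and leaving out each line were alternatives. CPM uses TMM library sizes. Coordinates are from GENCODE on GRCh38, matched for 58275 genes, and promoters from RefSeq; protein sequences were not used here. Named genes were all members, up to 4 genes per list with the smallest p, the 5 nearest genes on each side of MICB and the 5 genes most correlated with it; MMP2, MYC, EP300 and CADM1 are also the DESeq2 calls. The members and lists were chosen with earlier results of these data known. Intervals on counts cover counting error only.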

Additional observations from a re-analysis of the deposited data

How the results depend on the processing

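The log2 fold changes of the 6 members tested were above 0 in all 96 values over 16 alternatives, with MICB between 1.26 and 1.51; its adjusted p (edgeR, limma or DESeq2) was under 0.05 in 12 of the 16. Spike-in totals as library sizes gave MICB 1.51 and shifted the median of all genes to 0.15. The median of the other 5 members was 0.65, and 0.55 to 0.80 over the alternatives. The number of members whose groups did not overlap was 4 under each scaling. It was 4 to 6 when a line was left out. There it could only stay or rise, because the scaling was kept and a line was only removed, so nothing is read from it. The count of 10 genes over all genes was 508 in DESeq2, 16 in limma voom, 22 with spike-in totals, 34 with plain gene totals, 888 without a filter and 37 with the offset for neighbouring genes, and from 0 (without GST line 9; 1488 unadjusted in edgeR) to 970 (without NOCT line 12) when a line was left out; the cause was not tested. The 0 calls in the lists were 4 in DESeq2, 5 without a filter, 1 with the neighbour offset, and 0 to 10 without a line. Of 560 values of list genes, 7 changed sign: DGCR8 was -0.088 and MICE -0.019 with the neighbour offset, and leaving out a line gave HSPB1 -0.044 (without NOCT line 12) to 0.61, MICE -0.10 (without GST line 9; -0.021 without GST line 2) to 0.21 and RAET1K -0.12 (without GST line 9; -0.072 without NOCT line 11) to 0.55. Counts of 5 or fewer limit RAET1E and RAET1L. No paired analysis was possible because the groups share no replicate number. Leaving out lines for levels per line was chosen after seeing the data.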
